A study of Homo sapiens with 6 samples.

Results

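The DEAD and DEAH box helicases are a family of RNA-dependent ATPases, and their genes carry the symbols DDX and DHX. Members were taken from the deposited expression table by symbol, as all rows named DDX or DHX followed by a number, leaving out the interferon-induced genes DDX60, DDX60L and DDX58. The table held 50 such genes among 17280, 34 of them named DDX and 16 named DHX, and all 50 were found in the RefSeq gene table as protein-coding genes with the same symbol. RNA was sequenced from CAL-27 cells, a human tongue carcinoma line of squamous origin, cultured as spheres that float free of the dish, a format used to enrich for stem-like cells. The 3 control libraries, titled CON, are labelled as the normal control of the line. The other 3 libraries are titled LF3, the name of a compound known to disrupt the pairing of beta-catenin with TCF4, and 24 h is the exposure stated in the design text. Their treatment label names elesclomol-Cu for 24 h, a copper-carrying compound, in place of LF3. Groups follow the titles, so LF3 and CON below mean the libraries with those titles, and which compound the cells received cannot be told apart from the labels. All 6 libraries come from this 1 line, and whether the replicates came from separate cultures is not stated in the labels, and the p-values therefore reflect the scatter of these libraries alone, which may be technical.

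A DEAD or DEAH box protein binds RNA and ATP between a pair of RecA-like domains and uses ATP to separate short duplexes or to strip proteins from RNA. The names spell the amino acids of the conserved motif that handles ATP. Different members open different steps of gene expression: they fold precursor ribosomal RNA in the nucleolus, drive the rearrangements of the spliceosome, release messenger RNA from the nuclear pore and unwind leader sequences for translation. Growing tumour cells are known to need much of this machinery, because they make many ribosomes.

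Values are TPM, each gene's share of the library's RNA corrected for length, so that levels can be compared between genes. Sequencing depth cannot be read from TPM and is unknown here. A fold is a ratio of mean TPM, LF3 over CON unless said otherwise, and a log2 fold change is the difference LF3 minus CON of log2(TPM + 1) values with its standard error from limma, n = 3 in each group. In bulk RNA, fewer cells of a type and less RNA per cell cannot be told apart. No library stood apart: within groups, libraries correlated at a Pearson r of 0.996 to 0.997 on the log2(TPM + 1) scale, taken over genes, which do not count as replicates. Of the epithelial and squamous markers, EPCAM, an epithelial marker not particular to squamous cells, had a mean of 337 TPM in both groups. KRT5 had 98.8 to 105 TPM in the controls and 447 to 460 TPM under LF3. KRT17 had 192 to 209 TPM and 58.0 to 59.4 TPM in the same order, while KRT14 was at 0.83 TPM or less in every library. The sums of markers of other cell types differed between the groups. The 6 leukocyte markers in the table summed to 329 to 342 TPM in CON and 47.3 to 51.7 TPM in LF3, nearly all of it CD68, with PTPRC at 0.02 TPM or less. Of the 2 that averaged 1 TPM or more, CD68 was lower in LF3 and CD14 higher. CD14 had means of 0.69 TPM in CON and 1.99 TPM in LF3. The 7 fibroblast markers summed to between 14.8 and 15.8 TPM in CON and between 6.85 and 7.69 TPM in LF3, with COL3A1 and DCN at 0.03 TPM or less, and the 4 endothelial markers to at most 0.57 TPM and at most 7.26 TPM. That last difference was carried by CDH5, with means of 0.11 and 6.19 TPM, while PECAM1 had 0.25 and 0.23 TPM. The 7 epithelial and squamous markers summed to 846 to 879 TPM and 1079 to 1121 TPM, with KRT5 and KRT17 going in opposite directions within the sum. The part of these shifts in the results below was not tested.

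Most helicase genes were higher in LF3. Averaging 1 TPM or more across libraries, 48 members were tested, and of these 43 were higher, 2 were lower and 3 did not pass the test (limma, Benjamini-Hochberg adjusted p under 0.05 over 12195 genes). Of all tested genes 53.2% were called higher and 32.3% lower, 85.5% in all. The 2 lower members were DDX17 and DDX50, and the 3 without a call were DDX43, DDX59 and DHX40. At least 2-fold on the log2(TPM + 1) scale, 27 of 48 members were called higher, beside 20.8% of all tested genes. The libraries of the groups did not overlap in 45 of 48 members, beside 86.2% of all tested genes, so that separation by itself was common throughout. With LF3 higher, 43 of 48 members did not overlap, beside 53.5% of all tested genes. The members' median log2 fold change was 1.14, with the middle of the family between 0.58 and 1.52 (25th and 75th percentiles), while the median of all tested genes was 0.24.

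The median of all genes moved with the scaling, from 0.24 as deposited to -0.0055 after median-ratio scaling, in which a library is divided by the median, over the tested genes, of its ratios to each gene's geometric mean. This is called rescaling below. Rescaling gave 40 members higher and 4 lower, with a median of 0.88, and left 20 members at least 2-fold higher. The corresponding shares of all tested genes were 42.6% higher, 42.7% lower and 14.0% at least 2-fold higher. Quantile normalization called 38 members higher and 5 lower, beside 43.9% and 41.4% of all tested genes. All 40 members called higher after rescaling were among the 43 called as deposited. Relative to the median gene, 43 of 48 members lay above it.

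**Figure D1:**
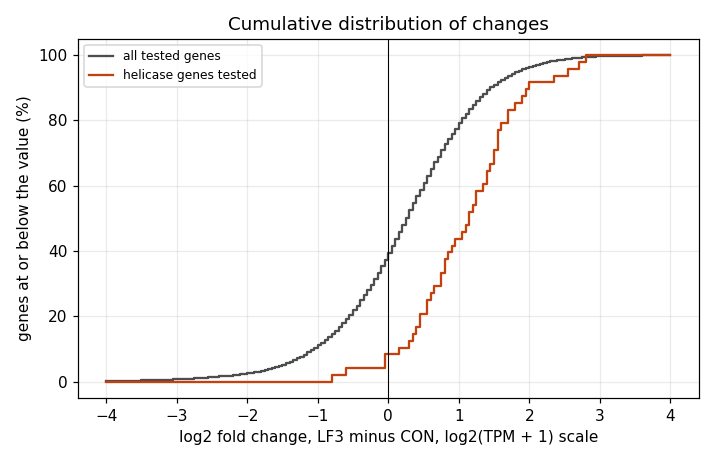
Cumulative share of genes (percent, vertical axis) at or below each log2 fold change (LF3 minus CON, horizontal axis), for the 48 helicase genes tested and for all 12195 tested genes. The helicase curve lies to the right, with a median of 1.14 against 0.24.

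Summed over all 50 members, the family took 1762, 1818 and 1756 TPM in the CON libraries and 3523, 3547 and 3407 TPM in the LF3 libraries. The groups did not overlap in this sum, and LF3 stood 1.96-fold higher (1.62-fold after rescaling). The rise was uneven, so the family's make-up changed. DDX17, a coregulator of transcription and splicing, held 14.3 ± 0.214% of the family's TPM in CON (SD, n = 3) and 4.09 ± 0.173% in LF3. The shares of DHX9, which unwinds RNA and DNA duplexes, were 1.67 ± 0.0643% and 5.01 ± 0.125% in the same order.

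**Figure D2:**
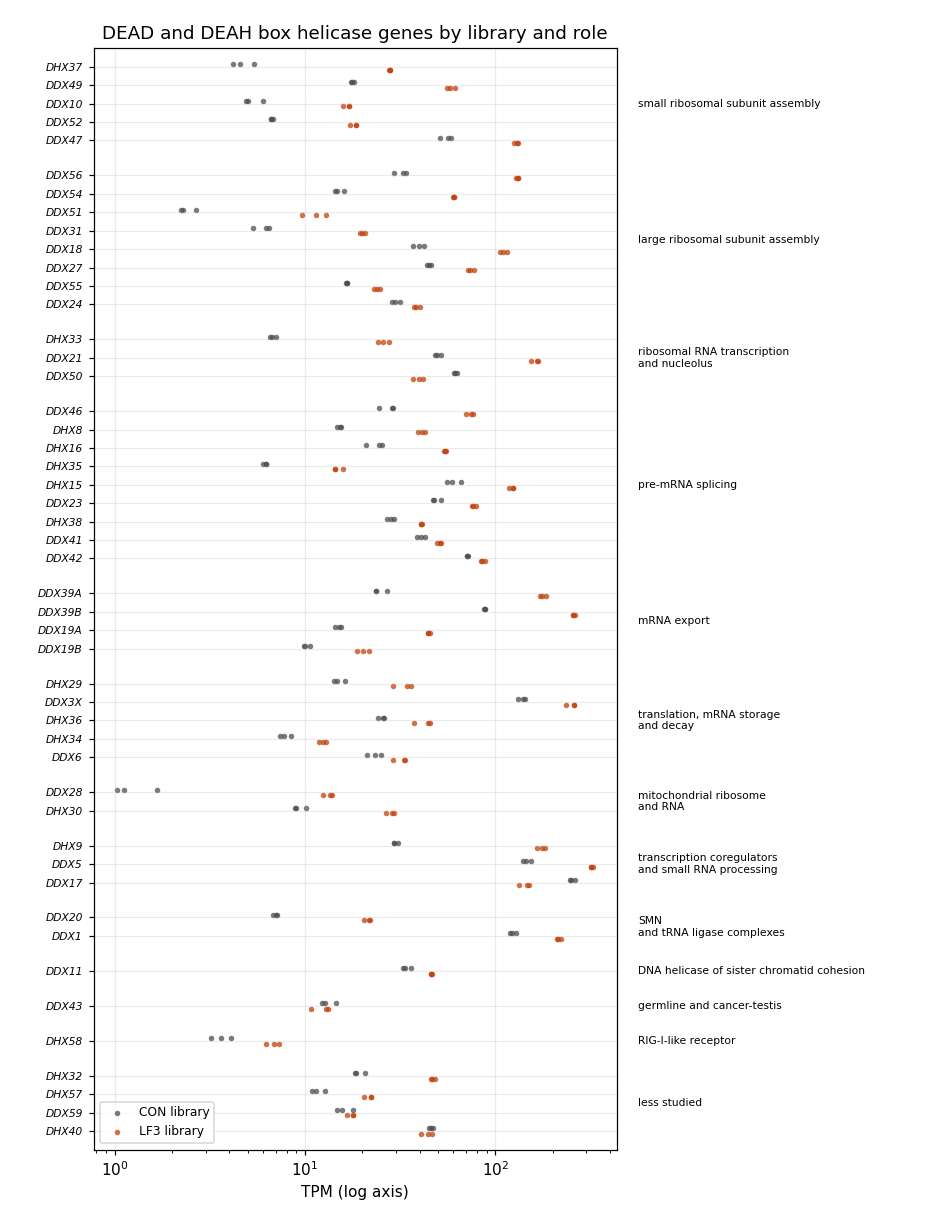
TPM of the 48 tested helicase genes (log axis), each point 1 library, grouped by main known role. LF3 points lie to the right of the CON points in 43 genes, to the left in DDX17 and DDX50, and among them in DDX43, DDX59 and DHX40.

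By level, CON was headed by DDX17 at 254 ± 8.56 TPM, followed by DDX5 at 146 ± 7.43, DDX3X at 139 ± 5.99, DDX1 at 124 ± 4.02 and DDX39B at 87.6 ± 0.501 TPM. DDX5 and DDX3X overlapped in their CON libraries, whereas DDX17 stood above both in every library. In LF3 the order was DDX5 at 322 ± 5.22, DDX39B at 259 ± 3.41, DDX3X at 251 ± 12.9, DDX1 at 215 ± 5.21 and DDX39A at 177 ± 5.72 TPM, where DDX39B and DDX3X overlapped. DDX39A moved from rank 23 to rank 5 and DHX9 from rank 19 to rank 6, while DDX17 moved from rank 1 to rank 8 and DDX50 from rank 7 to rank 28. Of 47 neighbouring pairs in the order, 18 did not overlap in CON and 20 did not in LF3, so most neighbours do not differ beyond their spread.

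The helicases of ribosome assembly were the largest set. Counting small subunit, large subunit and nucleolar roles together, 15 of 16 members were higher and 1 was lower. The median log2 fold change was 1.54, and 12 members were at least 2-fold higher. Rescaling gave 14 higher, 1 lower and 11 at least 2-fold higher, with a median of 1.29. The summed level of the 16 was 391 to 397 TPM in CON and 924 to 965 TPM in LF3. Of all tested genes, 53.2% were called higher and 20.8% at least 2-fold higher, or 42.6% and 14.0% after rescaling. These shares stand beside each role count below.

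All 5 members that act on the small ribosomal subunit were higher, each at least 2-fold. Rescaling kept all 5 calls and left 4 members at least 2-fold higher. DHX37, which releases the U3 snoRNA from the maturing small subunit, stood at 4.18, 4.56 and 5.38 TPM in CON and at 27.9, 27.9 and 27.6 TPM in LF3. Every LF3 library lay above every CON library, a 5.91-fold ratio (log2 fold change 2.34 ± 0.081, limma adjusted p = 4.67e-10). DDX49 stood at 17.5, 18.1 and 17.7 TPM in CON and at 61.3, 57.7 and 56.0 TPM in LF3, a 3.28-fold ratio. DDX10, also known as a fusion partner in leukaemia, was 3.14-fold higher, DDX52 2.71-fold and DDX47 2.33-fold. The level of DDX47 ran from 51.3 to 58.3 TPM in CON and from 125 to 132 TPM in LF3. Of the 50-base windows of its longest coding transcript in GENCODE 29, 99.7% also occur in transcripts annotated to the neighbouring locus APOLD1, so its reads could be shared.

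All 8 members of large subunit assembly were higher as well, though over a wide range. DDX56 stood at 32.7, 29.4 and 34.1 TPM in CON and at 131, 128 and 131 TPM in LF3, a 4.06-fold ratio (1.99 ± 0.055, limma adjusted p = 9.08e-11). DDX54 stood at 16.0, 14.4 and 14.7 TPM in CON and at 60.9, 60.1 and 60.5 TPM in LF3, or 4.03-fold. Neither gene's groups came near each other. DDX51, the lowest of the set in CON at 2.39 ± 0.238 TPM, reached 11.3 ± 1.64 TPM in LF3, and its log2 fold change of 1.85 ± 0.11 understates the 4.73-fold ratio because of the added 1 TPM. DDX31 was 3.35-fold and DDX18 2.76-fold higher. The smallest changes were those of DDX27 (1.66-fold), DDX55 (1.45-fold) and DDX24 (1.29-fold). DDX24, whose LF3 libraries at 37.4 to 40.2 TPM did stand above the CON libraries at 28.8 to 31.5 TPM, lost its call after rescaling (0.089, adjusted p = 0.123).

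The nucleolar helicases DDX21 and DDX50 went in opposite directions. DDX21 binds ribosomal DNA and snoRNAs and is needed for transcription and processing of ribosomal RNA, and DDX50 is its closest relative, also nucleolar. DDX21 stood at 49.6, 51.8 and 48.0 TPM in CON and at 165, 168 and 154 TPM in LF3, a rise of 1.69 ± 0.048 on the log2 scale (limma adjusted p = 1.07e-10). DDX50 stood at 63.1, 60.5 and 61.3 TPM in CON and at 39.9, 41.7 and 36.9 TPM in LF3, a change of -0.63 ± 0.053 (limma adjusted p = 6.36e-07). DDX50 was thus above DDX21 in each CON library and below it in each LF3 library. DHX33, which is known to take part in transcription of ribosomal DNA, was 3.82-fold higher at 24.1 to 27.8 TPM in LF3.

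DDX50 and DDX21 are next to each other on chromosome 10 in GRCh38.p14, with no other protein-coding gene starting between them. Their promoter windows are shown because the genes lie side by side and moved apart, and that of DHX37 because this gene had the largest rise in the ribosome roles. The windows come from RefSeq (GRCh38.p14), run 5′ to 3′ from 250 bases before to 50 bases after an annotated start, and are in lower case with 3 letter strings in capitals where found on either strand: CACGTG (the E-box, bound by MYC among others), CCGGAAG (an ETS motif) and CTTTGNT (a TCF/LEF motif). DDX21 has 2 annotated starts, at windows chr10:68955920-68956219 and chr10:68956397-68956696 on the plus strand. DDX50 is at chr10:68901065-68901364 on the plus strand and DHX37 at chr12:124989082-124989381 on the minus strand.
DDX21, first start: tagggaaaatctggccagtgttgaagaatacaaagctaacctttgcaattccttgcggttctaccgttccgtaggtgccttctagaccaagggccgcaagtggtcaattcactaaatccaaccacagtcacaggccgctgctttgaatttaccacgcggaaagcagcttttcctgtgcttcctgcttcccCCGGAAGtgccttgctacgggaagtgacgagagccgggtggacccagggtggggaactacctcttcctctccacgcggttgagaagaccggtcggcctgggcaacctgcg
DDX21, second start: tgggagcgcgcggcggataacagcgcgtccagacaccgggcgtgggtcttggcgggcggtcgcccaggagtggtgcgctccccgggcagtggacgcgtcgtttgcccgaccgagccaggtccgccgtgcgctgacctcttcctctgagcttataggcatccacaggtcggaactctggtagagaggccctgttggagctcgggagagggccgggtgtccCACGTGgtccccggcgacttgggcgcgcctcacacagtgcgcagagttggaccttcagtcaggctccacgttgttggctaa
DDX50: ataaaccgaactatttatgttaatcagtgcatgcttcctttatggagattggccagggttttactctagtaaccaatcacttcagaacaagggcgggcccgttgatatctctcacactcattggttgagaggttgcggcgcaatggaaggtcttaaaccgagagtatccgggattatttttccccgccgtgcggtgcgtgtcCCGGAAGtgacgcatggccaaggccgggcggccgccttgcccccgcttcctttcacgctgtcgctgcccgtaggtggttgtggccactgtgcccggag
DHX37: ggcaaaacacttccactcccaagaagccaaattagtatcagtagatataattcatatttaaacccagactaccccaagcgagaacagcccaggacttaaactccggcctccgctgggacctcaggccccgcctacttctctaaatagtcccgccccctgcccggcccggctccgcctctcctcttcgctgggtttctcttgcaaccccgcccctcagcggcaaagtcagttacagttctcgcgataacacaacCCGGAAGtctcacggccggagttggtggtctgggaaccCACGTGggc
The first DDX21 window and the DDX50 window each hold the ETS string, the second DDX21 window holds the E-box string, and the DHX37 window holds both. A match is a description of letters and not a measured binding site, and no match says only that these letters are not in the window.

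Among members with a promoter in that table, 10 of 45 held CACGTG in at least 1 window, or 22.2%, beside 12.7% of 10045 tested genes and 8.77% of 27305 genes. CCGGAAG was held by 23 of 45 members, or 51.1%, beside 22.6% of tested genes and 12.2% of all genes. Of the 23 members with a promoter that were called at least 2-fold higher, 12 held the ETS string, 7 the E-box string and 3 the TCF/LEF string. Among the other 22 members, the numbers were 11, 3 and 3 in the same order. These 22 include DDX4 and DDX25, which averaged under 1 TPM and were not tested, and DDX25 holds the E-box string. The TATA box string was in 4 of the 23 and 0 of the 22, and the GC box string in 13 and 17. CTTTGNT stood in 6 of 45 members, or 13.3%, beside 14.1% of tested genes and 18.3% of all genes. Other strings were searched in the same way, on both strands: the NRF1 motif was in 2 members, the YY1 motif in 1, GGGCGG (GC box) in 30, CCAAT in 23, TATAAA in 4 and the ZBTB33 motif in 0. Of tested genes, 2.69% hold the NRF1 motif, 3.34% the YY1 motif, 77.6% GGGCGG, 43.4% CCAAT, 8.47% TATAAA and 1.06% the ZBTB33 motif. CTTTGNT took the place of 4 narrower or overlapping strings after their counts were seen. It does not cover TTCAAAG and TCAAAG: DDX21 held both, in its first window, and DDX5 held the latter. CTTTGAT was in 0 members, CTTTGTT in 3, TTCAAAG in 1 and TCAAAG in 2. The shares of tested genes were 1.92%, 4.77%, 3.74% and 11.8% in the same order. No test was made of these shares. Genes with several annotated starts have more windows and so more chances of a match.

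Of the members that act in the spliceosome, all 9 were higher, with a median log2 fold change of 1.01 and 5 of them at least 2-fold higher. Rescaling gave 7 higher, 2 of them at least 2-fold, and a median of 0.74. The largest were DDX46, the homologue of yeast Prp5 that acts with the U2 snRNP, and DHX8, the homologue of Prp22 that releases the spliced message. DDX46 stood at 29.1, 28.7 and 24.5 TPM in CON and at 74.9, 76.0 and 70.0 TPM in LF3 (1.40 ± 0.067, limma adjusted p = 6.12e-09). DHX8 stood at 15.3, 14.7 and 15.5 TPM in CON and at 39.3, 42.6 and 41.4 TPM in LF3 (1.38 ± 0.055). In both genes the groups were well separated. DHX15, which takes the spliceosome apart and also works on ribosomes, rose from 55.7 to 65.9 TPM in CON to between 118 and 125 TPM in LF3. DHX16, the homologue of Prp2, was 2.30-fold and DHX35 2.41-fold higher.

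The other spliceosomal members changed less. DDX23, the homologue of Prp28 that lets U1 leave the splice site, was 1.57-fold higher and DHX38, the homologue of Prp16, 1.45-fold. DDX41 had 38.7 to 42.9 TPM in the controls and 49.3 to 52.0 TPM under LF3, and DDX42, a partner of SF3B, at 70.9 to 71.9 TPM and 84.5 to 88.8 TPM. Neither gene's ranges overlapped, but both calls were lost after rescaling, where DDX41 had 0.044 (adjusted p = 0.465) and DDX42 had -0.0028 (adjusted p = 0.949).

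**Figure D3:**
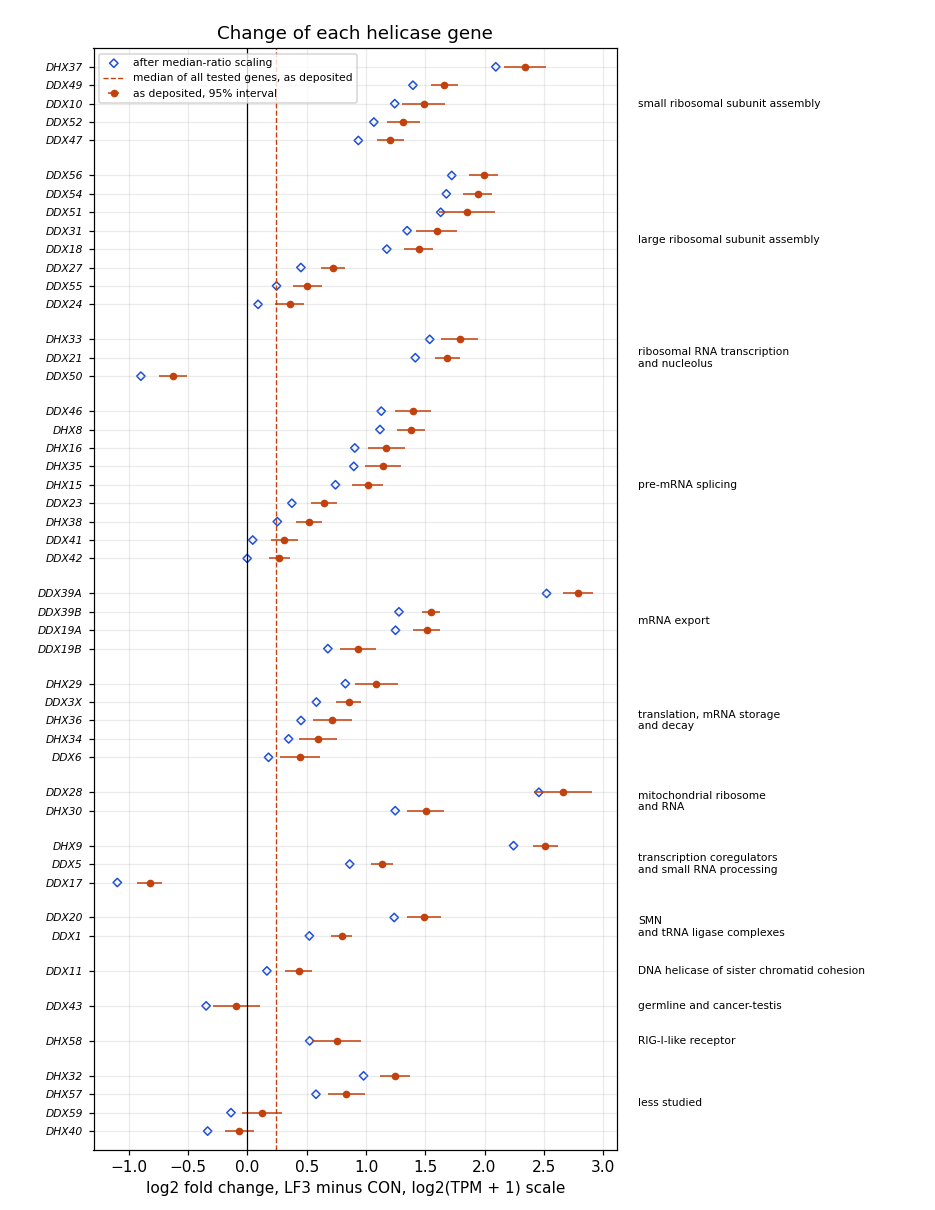
Log2 fold change (LF3 minus CON, log2(TPM + 1) scale) of each tested helicase gene with its 95% interval from limma, as deposited (filled circles) and after median-ratio scaling (open diamonds), grouped by role. The dashed line marks the median of all tested genes at 0.24, and DDX39A, DDX28, DHX9 and DHX37 lie farthest to its right.

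On the log2(TPM + 1) scale as deposited, the export helicases held the largest change of the family, while DDX28 had a higher ratio of mean TPM and a higher log2 fold change after quantile normalization (2.64 against 2.48 for DDX39A) and with pseudocounts of 0.5 (2.98 against 2.82) and 0.1 (3.32 against 2.84). DDX39A and DDX39B are close relatives that load export adaptors onto spliced messages, and DDX39B (UAP56) also helps U2 join the spliceosome. DDX39A stood at 23.6, 23.7 and 27.0 TPM in CON and at 173, 175 and 184 TPM in LF3, a 7.15-fold ratio (2.79 ± 0.057, limma adjusted p = 1.15e-11). Its change lay at the 99.5th percentile of all tested genes. DDX39B stood at 87.8, 87.1 and 88.0 TPM in CON and at 262, 256 and 258 TPM in LF3, a 2.95-fold ratio (1.55 ± 0.034). DDX39B stayed the more abundant of the pair in every library. Of the 50-base windows of DDX39B, 95.2% also occur in the read-through transcript ATP6V1G2-DDX39B, which carries the same exons.

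DDX19A and DDX19B remodel messages at the cytoplasmic face of the nuclear pore. DDX19A stood at 15.1, 15.5 and 14.4 TPM in CON and at 44.3, 45.3 and 44.3 TPM in LF3 (1.51 ± 0.051). DDX19B ranged from 9.82 to 10.6 TPM in CON and from 18.9 to 21.8 TPM in LF3 (0.93 ± 0.069). Both rose with no overlap between groups. They are neighbours on chromosome 16, and 62.2% of the 50-base windows of DDX19A and 44.8% of those of DDX19B occur in transcripts of other genes. Most of this is shared with the same annotated gene outside the pair, which holds 62.2% and 40.8% of the windows. DDX19A and DDX19B also share windows with each other, but that share was not counted by itself. The split of reads among these genes is therefore uncertain. DDX25, their testis relative, was at 0.06 TPM or less in every library.

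Of the 3 members counted as transcription coregulators and small RNA processing factors, 2 were higher and 1 lower. DHX9 (RNA helicase A) stood at 30.7, 29.3 and 29.4 TPM in CON and at 177, 182 and 166 TPM in LF3, a 5.87-fold ratio (2.51 ± 0.046, limma adjusted p = 6.10e-12). DDX5 (p68) stood at 145, 154 and 139 TPM in CON and at 318, 328 and 320 TPM in LF3 (1.14 ± 0.041). DDX17 (p72), which pairs with DDX5 in many complexes, stood at 251, 263 and 247 TPM in CON and at 150, 146 and 133 TPM in LF3. It fell by 0.83 ± 0.048 on the log2 scale (limma adjusted p = 3.07e-08), and CON stood 1.78-fold above LF3. DDX17 was above DDX5 in each CON library and below it in each LF3 library. Its promoter window, chr22:38506262-38506561 on the minus strand, is shown as the other falling member, with the same strings in capitals.
DDX17: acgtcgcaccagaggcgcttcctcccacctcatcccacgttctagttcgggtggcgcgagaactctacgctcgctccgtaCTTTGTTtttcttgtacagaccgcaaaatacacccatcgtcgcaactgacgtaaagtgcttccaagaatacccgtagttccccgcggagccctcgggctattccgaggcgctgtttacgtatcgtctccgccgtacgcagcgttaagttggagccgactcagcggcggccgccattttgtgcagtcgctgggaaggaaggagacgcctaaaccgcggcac
It holds the TCF/LEF string and neither of the other pair.

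The ratio of related genes within a library hardly depends on how that library was scaled, and was taken on the log2(TPM + 1) scale. The log2 ratio of DDX21 to DDX50 was -0.35 to -0.22 in CON and 1.99 to 2.03 in LF3, a difference of 2.32. For DDX5 over DDX17 the ratio ran from -0.82 to -0.77 in CON and from 1.08 to 1.26 in LF3, a difference of 1.96. DDX39A over DDX39B differed by 1.24, from -1.78 ± 0.10 to -0.54 ± 0.057, and DDX19A over DDX19B by 0.58, from 0.52 ± 0.093 to 1.10 ± 0.10 (SD, n = 3). In all 4 pairs the 3 ratios of LF3 lay above the 3 of CON. The exact two-sided permutation test gave p = 0.1 for each pair, also after adjustment over the 4 pairs, and 3 against 3 libraries cannot give less.

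**Figure D4:**
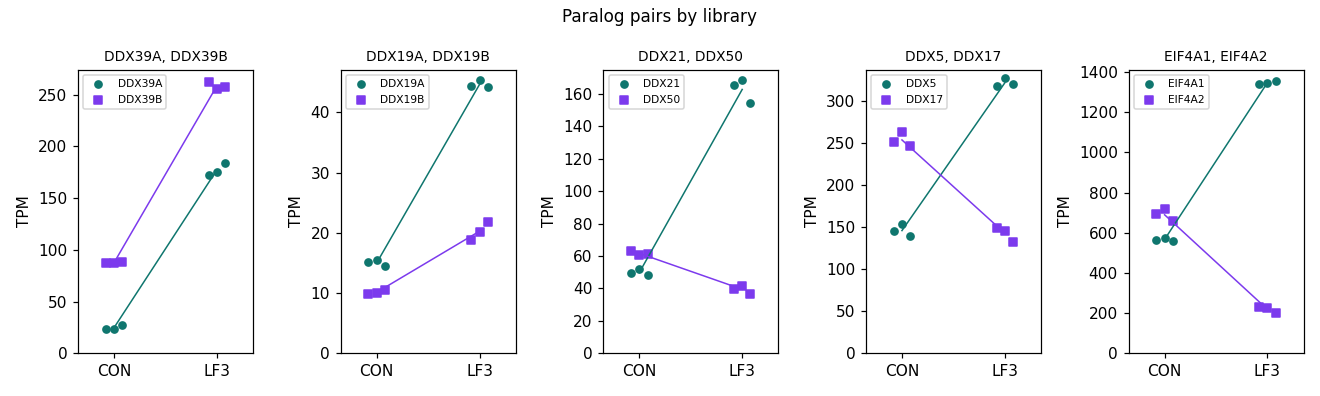
TPM of the genes of 4 paralog pairs of the family and of EIF4A1 and EIF4A2 in each library (points), with lines joining the group means. DDX21 and DDX50, DDX5 and DDX17, and EIF4A1 and EIF4A2 change order between CON and LF3, while DDX39B stays above DDX39A and DDX19A above DDX19B.

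In translation and mRNA turnover, all 5 members were higher with a median log2 fold change of 0.72, and 1 of them was at least 2-fold higher. Rescaling kept all 5 calls, with 0 at least 2-fold higher and a median of 0.45. DHX29, which helps the small subunit scan structured leaders, stood at 14.2, 16.2 and 14.7 TPM in CON and at 34.2, 36.1 and 29.2 TPM in LF3 (1.09 ± 0.082). DDX3X, which opens structured leaders for initiation, stood at 141, 143 and 132 TPM in CON and at 258, 260 and 237 TPM in LF3 (0.85 ± 0.047, limma adjusted p = 1.99e-08). LF3 replicate 3 was the lowest LF3 library for both, and it was so in 24 of the 43 higher members. The same count was not taken over all genes. The family's sum was lowest in LF3 replicate 3 as deposited (3407 TPM) but highest there after rescaling (3195, against 3137 and 3179 TPM). DHX36, which unfolds G-quadruplexes, was 1.67-fold and DHX34, a factor of nonsense-mediated decay, 1.57-fold higher. DDX6, the helicase of P-bodies and mRNA decay, had the least change at 21.3 to 25.2 TPM in CON and 29.1 to 33.7 TPM in LF3 (0.44 ± 0.075). Its change was 0.18 after rescaling (adjusted p = 0.0254).

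The mitochondrial pair rose from low levels. DDX28, which acts in assembly of the mitochondrial large ribosomal subunit, stood at 1.03, 1.12 and 1.67 TPM in CON and at 12.5, 13.5 and 13.9 TPM in LF3, the highest ratio of the tested members at 10.5-fold (2.66 ± 0.11, limma adjusted p = 1.85e-09). Its groups were far apart, though 19.5% of its 50-base windows also occur in transcripts of DUS2. DHX30, also needed for the mitochondrial ribosome, stood at 8.86, 8.96 and 10.2 TPM in CON and at 29.4, 26.8 and 28.5 TPM in LF3, 3.03-fold higher.

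Members of RNA-protein assembly complexes were higher too. DDX20 (gemin 3), the helicase of the SMN complex that builds snRNPs, stood at 7.15, 6.78 and 7.02 TPM in CON and at 22.1, 21.7 and 20.5 TPM in LF3 (1.49 ± 0.063). DDX1, which joins the tRNA ligase complex, stood at 123, 128 and 120 TPM in CON and at 221, 214 and 211 TPM in LF3 (0.79 ± 0.039). DDX11, a DNA helicase of sister chromatid cohesion that shares the family's symbol, was 1.36-fold higher. Of its 50-base windows 42.4% occur in other transcripts, among them its pseudogene copy DDX12P, and its log2 fold change of 0.43 ± 0.050 became 0.16 after rescaling (adjusted p = 0.0106). DHX58 (LGP2), a cytosolic sensor of viral RNA that remained among the members by the rule, was 1.87-fold higher at 6.26 to 7.28 TPM in LF3.

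Of the less studied members, DHX32 was 2.44-fold and DHX57 1.85-fold higher. DHX40 stood at 46.1, 47.1 and 44.7 TPM in CON and at 44.0, 46.7 and 40.8 TPM in LF3, overlapping ranges without a call (log2 fold change -0.068, 95% interval -0.19 to 0.056, limma adjusted p = 0.270). DDX59 stood at 14.7 to 17.9 TPM in CON and at 16.7 to 17.9 TPM in LF3 (0.12, interval -0.050 to 0.29, limma adjusted p = 0.165). DDX43, a cancer-testis gene, had 12.2 to 14.5 TPM in the controls and 10.8 to 13.2 TPM under LF3 (-0.095, interval -0.29 to 0.10, limma adjusted p = 0.333). Relative to the median gene both DHX40 and DDX43 were lower, as rescaling gave calls at -0.34 and -0.35 (adjusted p = 5.67e-05 and 0.00143), and DDX59 turned to -0.14 (adjusted p = 0.0902). DDX4, the germline helicase VASA, was at 0.14 TPM or less in every library and, like DDX25, was not tested.

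Helicases outside the symbol pattern were mostly higher too, but few of them by 2-fold. At least 2-fold higher were 2 of 13, or 0 after rescaling, beside 20.8% and 14.0% of all tested genes. Of 13 tested related helicases 12 were higher and 1 was lower (10 and 2 after rescaling), and the median log2 fold change was 0.64. Among all tested genes 53.2% were higher and 32.3% lower, or 42.6% and 42.7% after rescaling. EIF4A1, the initiation factor that unwinds leaders with EIF4G, stood at 565, 576 and 560 TPM in CON and at 1341, 1348 and 1354 TPM in LF3 (1.25 ± 0.027). Its near copy EIF4A2 stood at 695, 716 and 658 TPM in CON and at 231, 226 and 199 TPM in LF3 (-1.65 ± 0.056), so this pair too changed order. EIF4A3, the anchor of the exon junction complex, had 0.56 ± 0.042, SNRNP200 of the U5 snRNP 0.48 ± 0.039, MTREX of the nuclear exosome 0.84 ± 0.057, SUPV3L1 of mitochondrial RNA decay 1.11 ± 0.054 and the splicing helicase AQR 0.64 ± 0.076.

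Partner proteins were taken from 5 lists, whose counts stand beside 53.2% higher and 32.3% lower among all tested genes, or 42.6% and 42.7% after rescaling. Counts of genes at least 2-fold higher stand beside 20.8%, or 14.0% after rescaling. Of 21 activators of DEAH helicases, mainly G-patch proteins, 17 were higher and 2 lower (14 and 4 after rescaling), and their median was 0.62. Among these activators 4 were at least 2-fold higher (3 after rescaling), near the share of all tested genes. GPATCH4 had 3.02 ± 0.844 TPM (SD) in the controls and 51.6 ± 1.97 TPM under LF3, and UTP14A, the activator of DHX37, at 9.70 ± 1.18 and 44.0 ± 1.69 TPM. The splicing regulator RBM5 went the other way, from 46.0 ± 0.953 to 23.6 ± 0.321 TPM. Of 16 tested partners of the export helicases 13 were higher and 2 lower (12 and 3 after rescaling), and their median was 0.93. Their 2-fold count was 8, or 3 after rescaling. ALYREF, the adaptor that DDX39A and DDX39B load, had 33.7 ± 3.75 TPM in the controls and 214 ± 13.1 TPM under LF3, and NUP42, THOC7 and CHTOP had log2 fold changes of 1.77, 1.63 and 1.02. The 2 lower partners were ZC3H11A at -0.80 and POLDIP3 at -0.67.

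Of 10 partners of EIF4A and the exon junction complex 7 were higher and 2 lower (5 and 3 after rescaling), and their median was 0.73. Their 2-fold count was 5, or 3 after rescaling. After rescaling the share of higher genes in this list was near that of all tested genes. EIF4G1 had 131 ± 4.46 TPM in the controls and 431 ± 7.24 TPM under LF3, and EIF4G2, MAGOH and MAGOHB had log2 fold changes of 1.22, 1.80 and 2.29. The 2 lower genes were EIF4B, at 535 ± 1.46 TPM in the controls and 279 ± 7.76 TPM under LF3, and PDCD4, with a log2 fold change of -0.96. Of 14 other subunits of the SMN and tRNA ligase complexes, 12 were higher and 2 lower (10 and 2 after rescaling). Their median was 1.01, and 7 of them were at least 2-fold higher (3 after rescaling). Smallest in adjusted p were GEMIN4 at 1.90 ± 0.057, GEMIN5 at 1.65 ± 0.060, RTCB at 1.17 ± 0.037 and STRAP at 1.07 ± 0.040. The 2 lower subunits were GEMIN8 at -0.996 ± 0.080 and C2orf49 at -0.69 ± 0.052. Of 9 tested partners of DDX6, 3 were higher and 3 lower with a median of 0.0011, a share of lower genes near that of all tested genes, and rescaling gave 1 higher and 6 lower. Their 2-fold count was 0 both as deposited and after rescaling. The decapping genes DCP2 and DCP1A had -0.60 ± 0.084 and -0.61 ± 0.065, while EIF4ENIF1 had 0.43 ± 0.068 and LSM14A 0.30 ± 0.049, the latter without a call after rescaling (adjusted p = 0.595).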

How the data were processed

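RNA of 6 libraries was sequenced as single-end reads of 50 bases on a BGISEQ500, per the labels' protocols. HISAT and Bowtie2 are listed in the submitters' processing notes together with GRCm38.p6, a mouse build, while the identifiers are human, so what the reads were aligned to is not settled. The authors deposited TPM per gene and library to 2 decimals. How strand and reads with several matches were treated is not stated in the labels.

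LF3 was compared with CON by limma 3.58.1 (R 4.3.3) on log2(TPM + 1), two-sided, letting the variance follow the mean, and p was adjusted by Benjamini-Hochberg over the 12195 genes averaging 1 TPM or more. The procedure was tested on simulated data. Members, roles, partner lists and alternatives were chosen with earlier results of these data known, and a list has counts and medians only. Named genes are up to 10 called members in each direction with the largest changes, up to 3 of each role and 4 of each partner list with the smallest adjusted p, paralogs, members whose call or direction turns with the scaling, members without a call, and 7 fixed related helicases. The called lower genes of the export, EIF4A and SMN lists are named as well. The promoters shown and the strings searched were chosen after values and counts were seen, and 4 strings were replaced by 1 that does not cover all of them. Median-ratio factors were first taken over all genes above 0 in every library and then, with that result known, over the tested genes. Both are given. Sequences shared between genes were counted as identical 50-base windows in GENCODE 29 transcripts (GRCh38) on either strand. Plots used matplotlib 3.10.9 (Python 3.11.15). Alternatives tried were pseudocounts of 0.1 and 0.5, dropping the filter or raising it to 5 TPM, median-ratio and quantile scaling, no trend, robust variances, array weights, a replicate block and leaving out each library.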

Additional observations from a re-analysis of the deposited data

How the results depend on the processing

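Of the 48 tested members, 40 kept their direction and their side of the threshold under all 17 alternatives. The exceptions came with the scaling, apart from DDX59, which was called higher with array weights (0.18, adjusted p = 0.0261) and without CON replicate 3 (0.19, adjusted p = 0.0243). The lower members numbered 4 after median-ratio scaling and 5 after quantile normalization, against 2 as deposited. Lower counts under the same 2 scalings were 1 and 2 among less studied members, 1 and 1 among germline members, 2 and 2 among related helicases, 4 and 4 among activators of DEAH helicases and 6 and 6 among partners of DDX6, whose higher count was 1 and 1. Under quantile normalization limma called 0 of 1 DNA helicase (DDX11, adjusted p = 0.236, and 0 at an unadjusted p under 0.05), and DDX6 lost its call (0.11, adjusted p = 0.130). Signs turned after median-ratio scaling for DDX42 (-0.0028) and DDX59 (-0.14), and after quantile normalization for DDX24 (-0.0071), DDX41 (-0.057), DDX42 (-0.049), DDX59 (-0.18, adjusted p = 0.0404) and LSM14A (-0.027). The summed level was 1953 TPM in CON and 3170.3 TPM in LF3 after median-ratio scaling. A second set of median-ratio factors, over all genes above 0 in every library, was computed first and replaced, after its result was seen, by the factors over tested genes. It gave 5461 higher and 4946 lower of all genes, 41 members higher and 4 lower with a median of 0.93, lower counts of 1 (less studied), 1 (germline), 4 (DEAH activators) and 6 (DDX6 partners, 1 higher), DDX59 at -0.086, and sums of 1911 TPM in CON and 3225 TPM in LF3. It kept the call of DDX24, which the reported factors lost. Among all genes, the split was 6489 higher and 3938 lower as deposited and 5195 and 5205 after median-ratio scaling. When each library was left out in turn, 43 to 44 members were higher and 2 lower. Whether the replicate numbers pair the libraries cannot be told from the titles or from these values. Deviations of same-numbered libraries correlated at 0.048, 0.11 and 0.16, and those of differently numbered libraries at -0.17 to 0.074. CON replicate 1 correlated more with LF3 replicate 2 (0.074) than with its own number, while the other 5 libraries correlated best with theirs. With the replicate number as a block, 43 members were higher and 2 lower, and 6536 and 3986 of all genes. TPM holds no depth, so counting error could not be given.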

Other observations

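The 3 interferon-induced genes that the symbol rule left out did not move alike. DDX58, which encodes the viral RNA sensor RIG-I, had 7.77 ± 0.340 TPM (SD) in the controls against 15.6 ± 1.39 TPM under LF3, a log2 fold change of 0.92 ± 0.078. DDX60 had 0.29 ± 0.096 (limma adjusted p = 0.0149), and that call was lost after median-ratio scaling (0.054, adjusted p = 0.557). DDX60L had 0.082 ± 0.090 (limma adjusted p = 0.409).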
